A study of Saccharomyces cerevisiae with 4 samples.

Results

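The autophagy genes of the budding yeast Saccharomyces cerevisiae were compared between 2 strains grown in rich medium. A gene was counted as a member when its standard symbol was ATG followed by a number alone, and 34 of the 5449 genes named on the array met this rule, each with 1 probe set of its own. The gene table of the R64 reference holds 37 such symbols, and ATG42, ATG44 and ATG45 were not analysed here because no probe set was named for them. X2180 is a laboratory strain related to S288C, the strain of the reference genome, and NBRC1950 bears a number in the style of the NBRC, a culture collection in Japan. The series title ties the ergosterol content of the cells to their tolerance of vanillin, a growth inhibitor released from plant biomass, but no vanillin treatment is named for these samples. Cultures of both strains were shaken in YPD, a rich medium with glucose, and neither growth phase nor cell density is given. Each strain was read on 2 one-colour Affymetrix Yeast Genome 2.0 arrays, which the design text describes as independent duplicates.

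Autophagy is the process by which a cell wraps part of its own cytoplasm in a double membrane and delivers it to the vacuole, the lytic organelle of yeast, for breakdown and reuse. It is strongly induced by starvation and held low in rich medium, where part of the same machinery runs the cytoplasm-to-vacuole targeting (Cvt) pathway, which carries hydrolases such as aminopeptidase I to the vacuole. The Atg1 kinase complex starts the process, vesicles with Atg9 and a lipid transfer protein supply membrane, a phosphatidylinositol 3-kinase marks the site, 2 ubiquitin-like conjugation systems attach Atg8 to the membrane, and receptors choose the cargo.

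Part of the autophagy genes differed between the strains, in both directions and mostly by less than 2-fold. Of the 34 genes, all of which lay above background on all 4 arrays, 5 were higher in NBRC1950 and 12 lower at an adjusted p under 0.05 in limma, a linear model fitted to all genes at once, and 17 did not pass. Among all 5316 genes tested, 47.2% were called, 20.4% as higher and 26.8% as lower, so that the 50% of autophagy genes called was near the share over all genes. In this scaling only ATG33 differed by 2-fold or more, against 7.39% of all genes that were called at that size. The 5 higher genes were ATG4, ATG10, ATG3 and ATG8 of the conjugation systems and ATG21. The 12 lower genes included 5 of the 8 grouped as scaffolds and receptors of selective autophagy (1, ATG33, when scaled to all probe sets). They also included 4 of the 6 genes of the Atg9 and lipid transfer group (2 when so scaled). The median difference over the 34 genes was -0.21 on the log2 scale (NBRC1950 minus X2180), against -0.05 over all genes. All differences below are on this scale and in this direction. The signals of the strains did not overlap for 29 of the 34 genes, and for 75.7% of all genes tested.

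The directions rest on how the arrays were brought to one scale. Signals below are intensities multiplied by 1 factor per array, which sets the median S. cerevisiae probe set to 973.6. Scaled instead to the median of all 10928 probe sets, the median gene stood at 0.50, and 19 of the 34 autophagy genes were then called higher and 3 lower, where 74.6% of all genes were called higher and 6.04% lower. Of these probe sets, 5217 matched no single S. cerevisiae gene and served as background. The median of all 10928 probe sets before scaling was only 36.9 to 56.3 on the 4 arrays, against 894 to 1171 for the S. cerevisiae probe sets. With no further scaling the counts were 5 higher and 4 lower, against 17.4% and 7.2% of all genes, with the median gene at 0.16. With quantile normalization they were 8 and 8, against 24.3% and 22.4%, with the median gene at 0.02. Of the called genes, 8 were called in the same direction under all 4 scalings, namely ATG3, ATG4, ATG8, ATG10 and ATG21 as higher and ATG27, ATG33 and ATG41 as lower. The median gene stood at -0.05 in the main scaling. The other scalings with one factor per array raise all 34 differences above their main values. A higher call is thus kept more easily than a lower one, and the same share over all genes was not counted. A change of scale factor moves all genes of an array together, so that the order of the differences from ATG4 down to ATG33 is the same under the 3 scalings that use one factor per array.

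Before scaling, the median S. cerevisiae signal was 894 to 1171 on the 4 arrays. After scaling, between 5240 and 5299 of the 5316 genes tested lay above the background limits of 14.9 to 18.2, each the 90th percentile of the probe sets matched to no S. cerevisiae gene. The log2 signals of the 34 genes differed between arrays of one strain by an SD of 0.21 in X2180 and 0.22 in NBRC1950, and between arrays of different strains by 0.48 to 0.56. The 17 ribosomal RNA controls of the array all had lower signals in NBRC1950, with an average difference of -1.10 ± 0.32 (SD among the 17), and the part of RNA composition in the differences below was not tested. Probe sequences and a genome of NBRC1950 were not used, so the part of probe mismatches in a lower NBRC1950 signal was not tested either. In RNA of whole cultures, fewer cells that make a transcript and less transcript per cell cannot be told apart. Levels of different probe sets are not compared with each other as amounts of transcript.

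**Figure D1:**
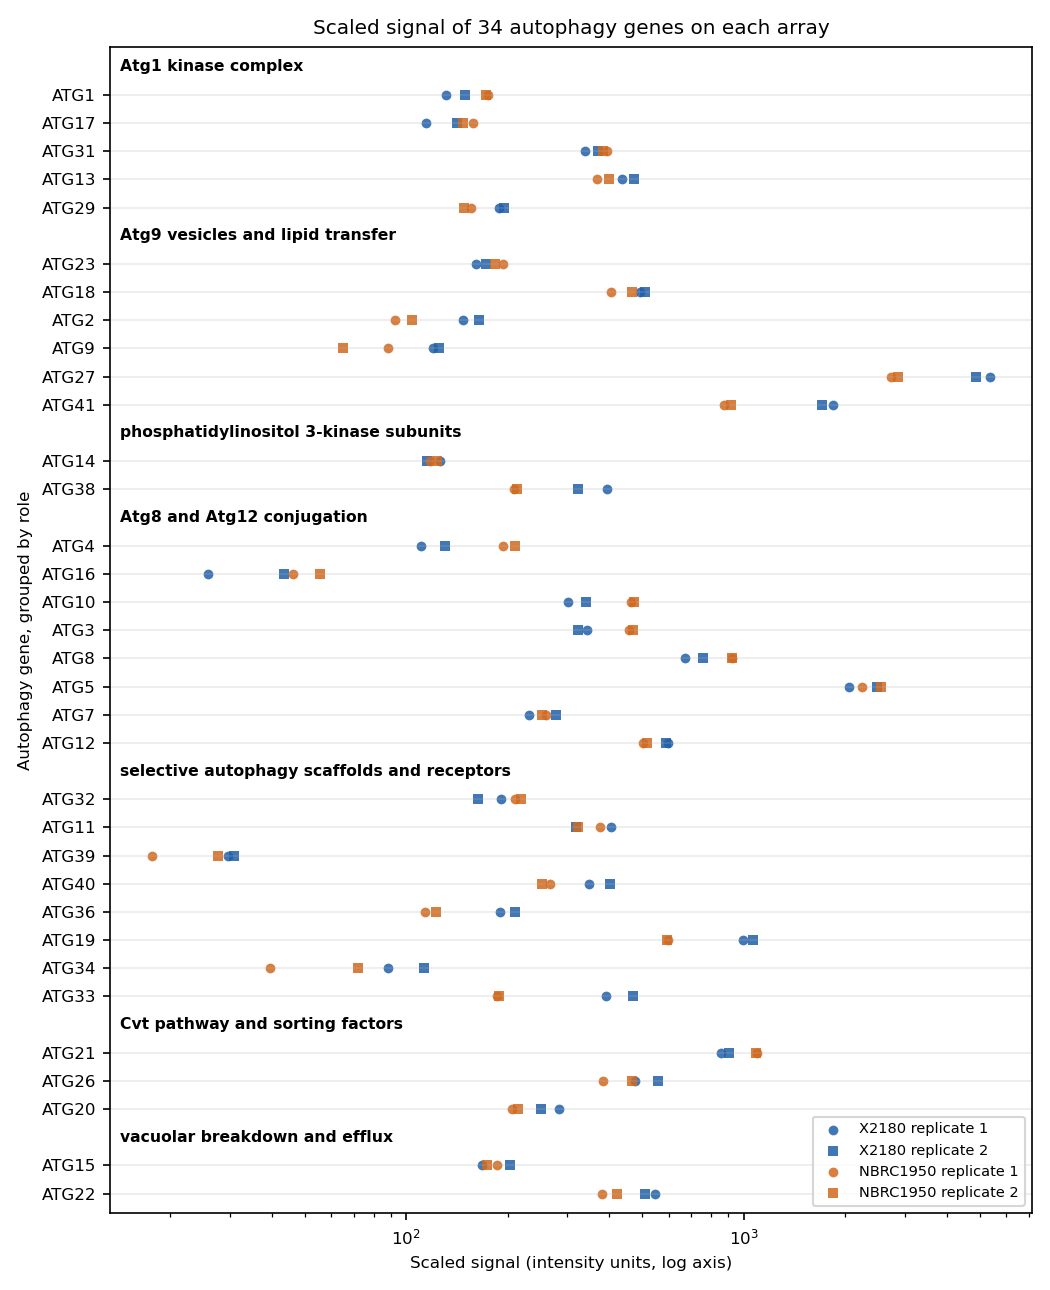
Scaled signal (intensity units, log axis) of the 34 autophagy genes on each of the 4 arrays, with genes in rows grouped by role, X2180 in blue, NBRC1950 in orange, circles for replicate 1 and squares for replicate 2. The strains do not overlap for 29 genes, and for ATG5, ATG7, ATG11, ATG14 and ATG15 they do.

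The Atg1 kinase complex, which starts autophagosome formation, had no member called. In the fit without an intensity trend ATG1 was called higher (limma adjusted p = 0.0444) and ATG29 lower (0.0183). ATG1 (YGL180W), the protein kinase, had signals of 131 and 149 in X2180 and 174 and 172 in NBRC1950. Both NBRC1950 arrays were above both X2180 arrays, and the difference of 0.31 ± 0.14 (SE; limma adjusted p = 0.0992) had a 95% interval of -0.01 to 0.63. ATG13 (YPR185W), the regulatory subunit through which the TORC1 kinase acts on Atg1, lay lower on both NBRC1950 arrays, at 367 and 399 against 435 and 472, with a difference of -0.24 ± 0.10 (SE; limma adjusted p = 0.0815). The scaffold is made of the products of ATG17, ATG29 and ATG31, and their differences took both signs. ATG17 (YLR423C) was at 115 and 141 in X2180 and 158 and 148 in NBRC1950, a difference of 0.26 with an interval of -0.10 to 0.63. ATG31 (YDR022C), at 339.5 and 369 in X2180 and 394 and 381 in NBRC1950, differed by 0.13 with an interval of -0.10 to 0.36. ATG29 (YPL166W), at 189 and 195 in X2180 and 155 and 148 in NBRC1950, differed by -0.34 ± 0.12 (SE; limma adjusted p = 0.059). ATG29 overlaps SET6 in the R64 table, and SET6 was at 0.47 and not called. Scaled to all probe sets, 4 of the 5 genes were called higher, and with quantile normalization 2 were, ATG1 and ATG17.

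The group of Atg9 vesicles and lipid transfer held 4 genes that were lower in NBRC1950, ATG41, ATG27, ATG9 and ATG2, and none that was higher, with a median difference of -0.68 (2 lower and 2 higher when scaled to all probe sets). ATG41 (YPL250C), also called ICY2, whose product binds Atg9 and is needed for normal autophagosome formation, had signals of 1841 and 1707 in X2180 and 877 and 915 in NBRC1950. The NBRC1950 signals lay at about the same distance below both X2180 signals, a difference of -0.98 ± 0.07 (SE; limma adjusted p = 5.41e-05), or 1.98-fold lower. ATG27 (YJL178C) encodes a membrane protein that takes part in the transport of Atg9. Its signals were 5369.8 and 4892 in X2180 and 2724 and 2871 in NBRC1950, which do not overlap and differ by -0.87 ± 0.07 (SE; limma adjusted p = 8.3e-05). ATG9 itself (YDL149W), the transmembrane lipid scramblase of the vesicles, had signals of 119.9 and 125 in X2180 and 88.5 and 65.1 in NBRC1950. The NBRC1950 arrays differed from each other more than the X2180 arrays did, and the strain difference was -0.69 ± 0.19 (SE; limma adjusted p = 0.0213). It no longer passed when X2180 replicate 1 (adjusted p = 0.0903), X2180 replicate 2 (0.113) or NBRC1950 replicate 2 (0.129) was left out, and it stood at -0.47 without NBRC1950 replicate 2 and -0.91 without NBRC1950 replicate 1. ATG2 (YNL242W), the lipid transfer protein that feeds the growing membrane, was at 147 and 164 in X2180 and 92.6 and 104 in NBRC1950, a difference of -0.66 ± 0.15 (SE; limma adjusted p = 0.00945). Without X2180 replicate 2 its adjusted p was 0.0539, and without NBRC1950 replicate 1 it was 0.0506.

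Both other genes of this group were not called. ATG18 (YFR021W), which binds phosphatidylinositol 3-phosphate and works with Atg2, was at 492 and 509 in X2180 and 405 and 465 in NBRC1950 and differed by -0.21 with an interval of -0.44 to 0.03. ATG23 (YLR431C), a peripheral membrane protein of Atg9 transport, was at 160.4 and 172 in X2180 and 193 and 183 in NBRC1950 and differed by 0.18 with an interval of -0.11 to 0.47. Of the 4 lower genes, ATG41 and ATG27 were called lower under all 4 scalings, while ATG9 and ATG2 kept a negative sign but were not called under the other 3, at -0.24 and -0.38 with quantile normalization. ATG18 and ATG23 were at 0.34 and 0.72 when scaled to all probe sets, and were then called higher.

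The phosphatidylinositol 3-kinase complex of autophagy has 2 subunits with ATG names. ATG38 (YLR211C), which links subunits of the complex, had signals of 394 and 323 in X2180 and 208 and 214 in NBRC1950. It was lower in NBRC1950 by 1.69-fold, a difference of -0.76 ± 0.13 (SE; limma adjusted p = 0.00237), and -0.21 and not called when scaled to all probe sets. ATG14 (YBR128C), the subunit that directs the kinase to autophagy, had signals of 126 and 116 in X2180 and 118 and 123 in NBRC1950. These signals overlap, and the difference of -0.0018 had an interval of -0.34 to 0.34. The 3 subunits without ATG names, VPS34, VPS15 and VPS30, differed by -0.03, 0.22 and -0.17, and none was called.

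The conjugation systems held 4 of the 5 higher autophagy genes, and 0 of their 8 genes were called lower under any of the 4 scalings. Scaled to all probe sets, all 8 were called higher, where 74.6% of all genes were. Atg8 and Atg12 are ubiquitin-like proteins, and Atg8 ends up bound to phosphatidylethanolamine of the autophagosome membrane. ATG4 (YNL223W), the protease that trims Atg8 and later releases it from the membrane, had signals of 111 and 130.1 in X2180 and 194 and 209.6 in NBRC1950. The lower NBRC1950 signal was clearly above the higher X2180 signal, and the difference of 0.75 ± 0.14 (SE; limma adjusted p = 0.00437) was the largest positive one among the 34 genes in this scaling. ATG10 (YLL042C), the E2-like enzyme that conjugates Atg12 to Atg5, had signals of 302 and 339.7 in X2180 and 463 and 473 in NBRC1950, a difference of 0.55 ± 0.10 (SE; limma adjusted p = 0.00389). ATG3 (YNR007C), the E2-like enzyme that conjugates Atg8, had signals of 342 and 323 in X2180 and 456 and 470.4 in NBRC1950, a difference of 0.48 ± 0.09 (SE; limma adjusted p = 0.00506). For all 3 enzymes the gap between strains was larger than the gap between arrays of one strain, and each was called without any one of the 4 arrays. ATG8 (YBL078C), whose transcript is known to rise on nitrogen starvation, had signals of 669 and 759 in X2180 and 925 and 924 in NBRC1950. The NBRC1950 arrays were nearly equal, and the difference was 0.38 ± 0.09 (SE; limma adjusted p = 0.0105). Without X2180 replicate 1 it was 0.28 (adjusted p = 0.0503).

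The other 4 conjugation genes were not called in the main scaling. Scaled to all probe sets they were called higher, ATG12 with its sign turned, at 0.33. ATG16 (YMR159C), whose product joins Atg12-Atg5 into a larger complex, was dim, with signals of 25.9 and 43.5 in X2180 and 46.0 and 55.6 in NBRC1950. X2180 replicate 1 stood apart from the other 3 arrays, and the difference of 0.59 had a wide interval of -0.11 to 1.29. It was called without X2180 replicate 2, at 0.96 (adjusted p = 0.0374), with quantile normalization, at 1.24 (0.0119), and scaled to all probe sets, at 1.14 (8.89e-05). ATG7 (YHR171W), the E1-like enzyme that serves both systems, had overlapping signals of 231 and 277 in X2180 and 259 and 252 in NBRC1950, and its difference of 0.01 had an interval of -0.28 to 0.31. ATG5 (YPL149W), the target of Atg12, also had overlapping signals, 2047 and 2477 in X2180 and 2243 and 2544 in NBRC1950, and differed by 0.09 with an interval of -0.16 to 0.33. ATG12 (YBR217W) was at 596 and 589.6 in X2180 and 504 and 517 in NBRC1950, lower on both arrays, with a difference of -0.22 ± 0.08 (SE; limma adjusted p = 0.0684).

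**Figure D2:**
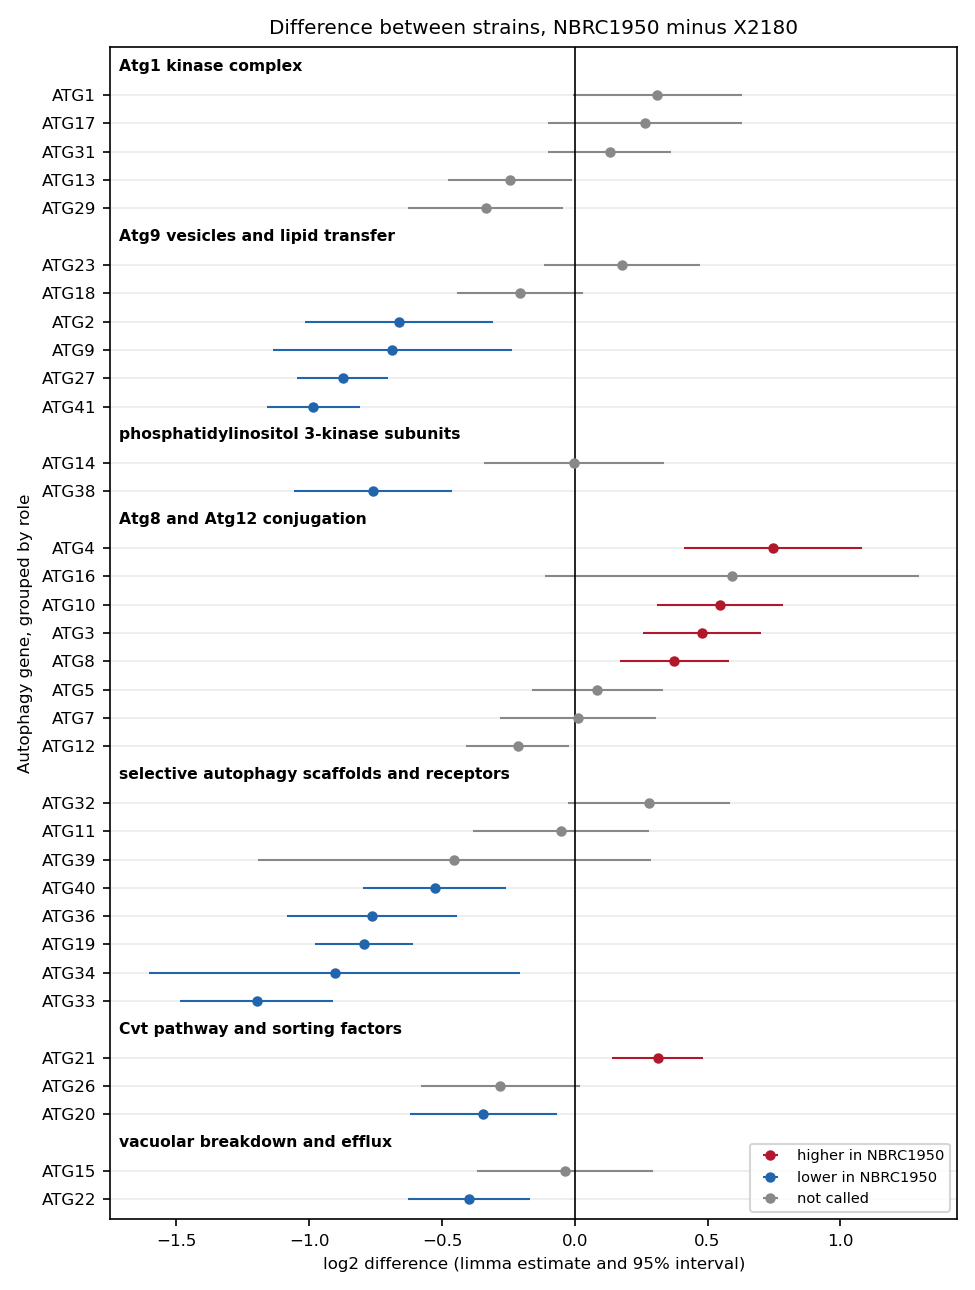
Difference between strains on the log2 scale (NBRC1950 minus X2180) for the 34 autophagy genes, with the limma estimate as a point and its 95% interval as a bar, red for higher, blue for lower and grey for not called at an adjusted p under 0.05. The called conjugation genes lie between 0.38 and 0.75, and the called genes of the scaffold and receptor group, ATG33 among them, between -0.53 and -1.20. In the scaling to all probe sets ATG40 turns to 0.02, and only ATG33 of that group stays called lower.

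The group of scaffolds and receptors of selective autophagy holds 8 genes, and ATG33 is counted in it though it is not known as either. Of these 8 genes, 5 were lower and 0 higher, with a median difference of -0.65. When scaled to all probe sets 1 of them, ATG33, was lower and 2 were higher. With quantile normalization 4 were lower and 0 higher. ATG33 (YLR356W), a mitochondrial membrane protein needed for the removal of mitochondria, had signals of 391 and 470.3 in X2180 and 186 and 189 in NBRC1950. The strains were far apart and the NBRC1950 arrays close together, and the difference of -1.20 ± 0.12 (SE; limma adjusted p = 0.000236) was the largest of the 34, 2.29-fold lower. ATG19 (YOL082W), the receptor that brings the precursor of aminopeptidase I into the Cvt pathway, had signals of 995 and 1066 in X2180 and 596 and 593 in NBRC1950, a difference of -0.79 ± 0.08 (SE; limma adjusted p = 0.000205). ATG34 (YOL083W), the neighbouring gene and a paralogue of ATG19, encodes a receptor for alpha-mannosidase that acts in starvation, and had signals of 88.1 and 113 in X2180 and 39.4 and 72.1 in NBRC1950. Its NBRC1950 arrays differed by 0.87 on the log2 scale, and the strain difference was -0.90 ± 0.30 (SE; limma adjusted p = 0.0404). The probe set names mark 0 of the 34 genes as sharing probes with another gene. The call of ATG34 did not pass when X2180 replicate 1 (adjusted p = 0.116), X2180 replicate 2 (0.244) or NBRC1950 replicate 1 (0.181) was left out, and without NBRC1950 replicate 1 the difference was -0.47. Nor did it pass with no filter (0.0709), without an intensity trend (0.0665) or with quantile normalization, where the difference was -0.39 (0.274).

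ATG36 (YJL185C), the receptor for peroxisomes, had signals of 189.8 and 210.3 in X2180 and 113 and 122 in NBRC1950, a difference of -0.76 ± 0.14 (SE; limma adjusted p = 0.0031). The ATG36 difference was -0.22 in the scaling to all probe sets and -0.56 with no further scaling, and was not called in either. ATG40 (YOR152C), a receptor in the endoplasmic reticulum, had signals of 347 and 403 in X2180 and 266 and 253 in NBRC1950. The strains did not overlap for either receptor, and ATG40 differed by -0.53 ± 0.12 (SE; limma adjusted p = 0.00778), with an adjusted p of 0.0509 without X2180 replicate 2 and a difference of 0.02 in the scaling to all probe sets. ATG39 (YLR312C), the receptor of the nuclear envelope, was close to the background limits, at 29.7 and 30.9 in X2180 and 17.7 and 27.6 in NBRC1950. Its difference of -0.45 had an interval of -1.19 to 0.29 that includes both 0 and the difference found for ATG36. ATG32 (YIL146C), the receptor for mitochondria, went the other way from ATG33, at 190.2 and 163 in X2180 and 210.3 and 218 in NBRC1950, a difference of 0.28 ± 0.13 (SE; limma adjusted p = 0.117). ATG11 (YPR049C), the scaffold to which receptors bind, had overlapping signals, 405 and 319 in X2180 and 374 and 322 in NBRC1950, and differed by -0.05 with an interval of -0.38 to 0.28. ATG32 and ATG11 were the 2 genes of this group that were called higher when scaled to all probe sets, at 0.83 and 0.49.

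Factors of the Cvt pathway and of sorting differed among themselves. ATG21 (YPL100W), which binds phosphatidylinositol 3-phosphate and helps to bring Atg8 to the membrane, had signals of 857 and 905 in X2180 and 1098 and 1089 in NBRC1950. It was higher by 0.31 ± 0.07 (SE; limma adjusted p = 0.0109), and its adjusted p was 0.0575 without NBRC1950 replicate 1. ATG20 (YDL113C), a sorting nexin that works with Snx4, had signals of 284 and 251 in X2180 and 206 and 215 in NBRC1950, a difference of -0.34 ± 0.12 (SE; limma adjusted p = 0.0467). That gene lay close to the threshold: its adjusted p was 0.0518 to 0.191 with any 1 of the 4 arrays left out, 0.0534 with the replicate number as a block, 0.0592 with no filter and 0.101 with quantile normalization, and its difference turned to 0.20 in the scaling to all probe sets. Its partner SNX4 was at 0.22 and not called. ATG26 (YLR189C) encodes a glucosyltransferase of sterols, ergosterol among them, which has a part in the removal of peroxisomes in methylotrophic yeast and is not needed for autophagy in S. cerevisiae. Its signals were 476 and 556 in X2180 and 384 and 467 in NBRC1950. The NBRC1950 arrays lay only just below the X2180 arrays, and the difference of -0.28 ± 0.13 (SE; limma adjusted p = 0.109) had an interval of -0.58 to 0.02. It was called lower without NBRC1950 replicate 2, at -0.42 (adjusted p = 0.0439), and with the replicate number as a block (0.0357), and its difference was 0.27 in the scaling to all probe sets.

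The end of the pathway takes place inside the vacuole. ATG22 (YCL038C), which exports amino acids from it, had signals of 545 and 511 in X2180 and 380.5 and 420.3 in NBRC1950. It was lower in NBRC1950 by 1.32-fold, a difference of -0.40 ± 0.10 (SE; limma adjusted p = 0.0126), with an adjusted p of 0.0765 without X2180 replicate 1 and 0.0885 without NBRC1950 replicate 1, and a difference of 0.15 in the scaling to all probe sets. ATG15 (YCR068W), the lipase that opens the delivered membranes, had overlapping signals, 168 and 203 in X2180 and 186 and 174 in NBRC1950, and differed by -0.04 with an interval of -0.37 to 0.29.

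**Figure D3:**
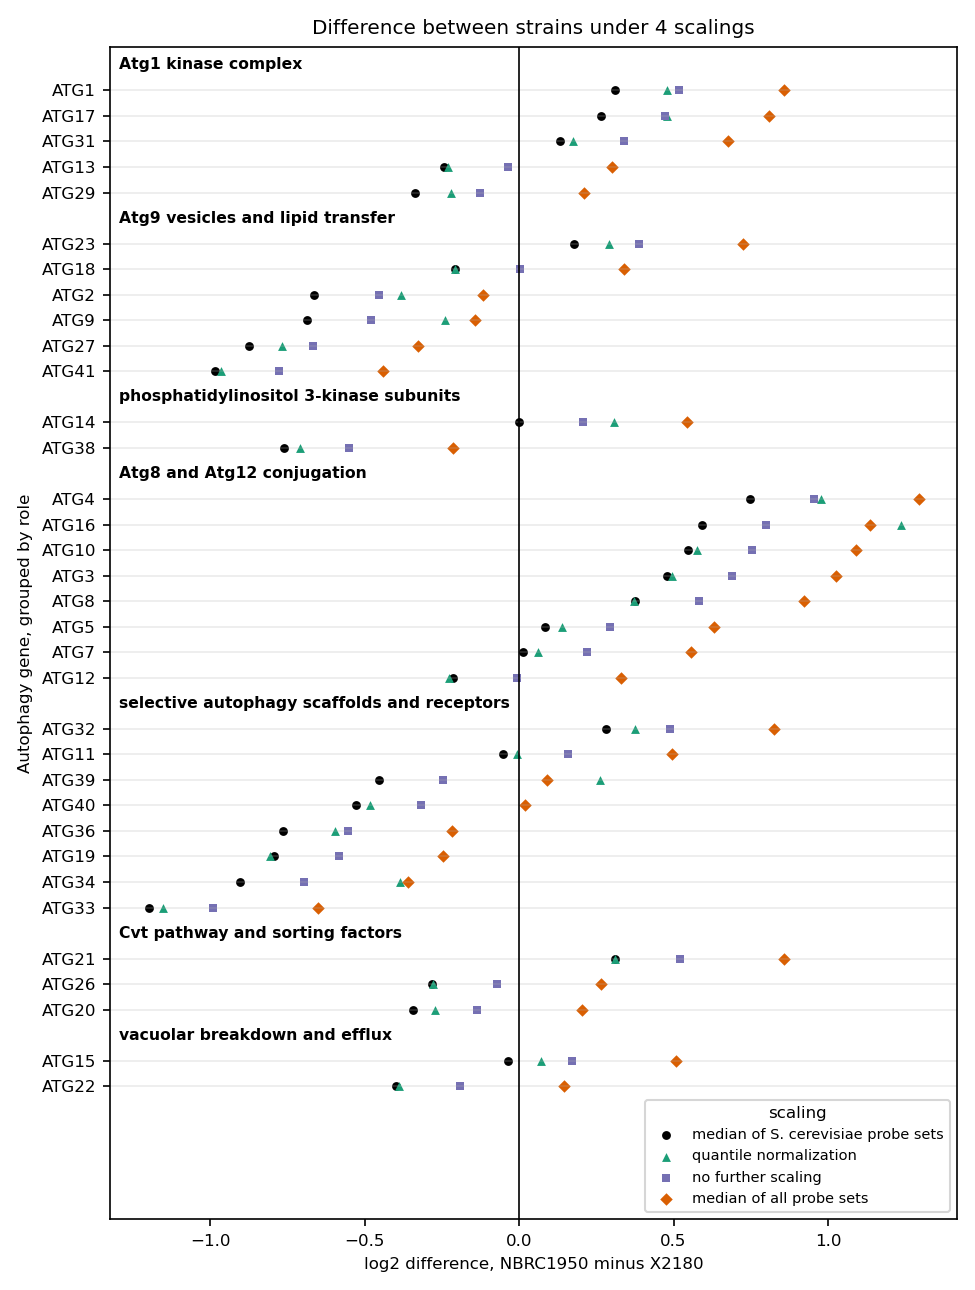
Difference between strains on the log2 scale (NBRC1950 minus X2180) for the 34 autophagy genes under 4 scalings, 1 marker per scaling. Of the 34 genes, 22 keep their sign under all 4 scalings, and ATG4 (0.75 to 1.29) and ATG33 (-1.20 to -0.65) mark the ends of the range. The share of all genes that keep their sign was not counted.

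The plot of the autophagy genes among all genes tested sets each difference against the signal of its own probe set. The median size of difference of the autophagy genes, without regard to sign, was 0.36 on the log2 scale, against 0.25 over all genes. Of the 34 autophagy genes, 31 had a mean signal below that of the median gene tested. The 2 medians are therefore not matched for signal, and the part of signal level in them was not tested. Of 33 neighbours in R64 gene order that were tested beside the 17 called autophagy genes, 10 were called in the same direction, 7 in the opposite one and 16 not at all. Over all genes tested 47.2% were called, so the share of neighbours called was near that over all genes. ATG19 and ATG34 are neighbours of each other and count among the 10. ATG33 lies between ILV5 (-0.22, called lower) and RSC2 (0.37, called higher).

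**Figure D4:**
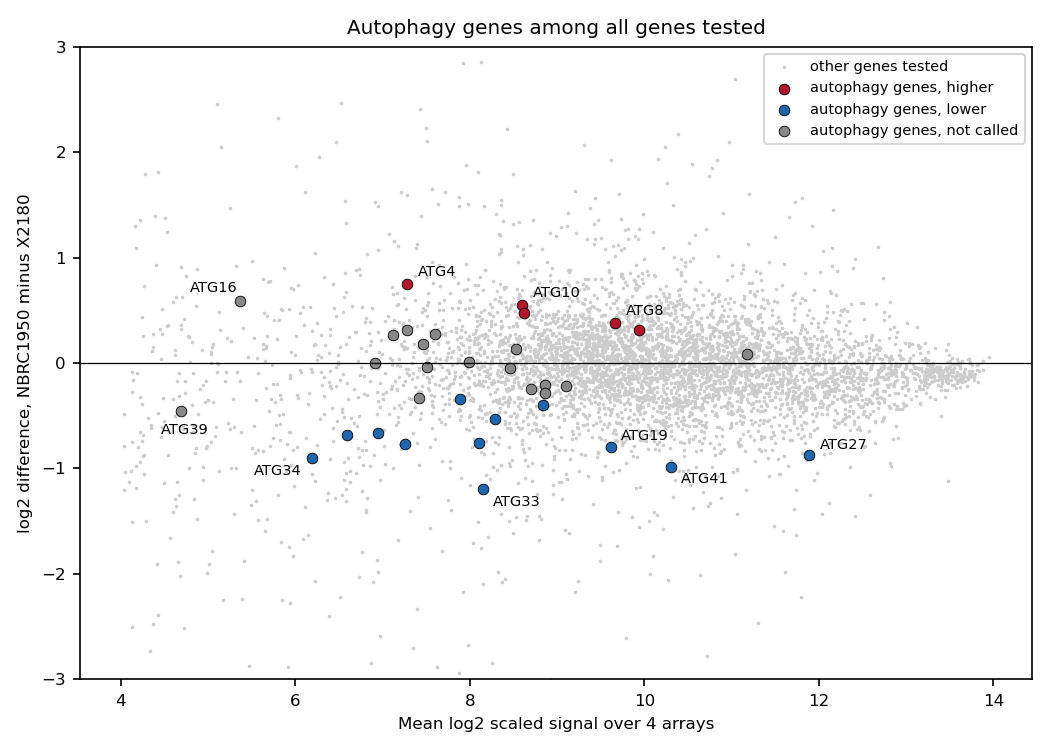
Difference between strains on the log2 scale (NBRC1950 minus X2180) against the mean log2 scaled signal over the 4 arrays, with all genes tested as grey points and the 34 autophagy genes in red (higher), blue (lower) or grey with a black edge (not called). The vertical axis ends at 3 in both directions and leaves out 70 other genes, and none of the autophagy genes.

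Genes that act beside or upstream of the autophagy genes, taken from 7 lists, were read in the same fit. Over all genes tested, 20.4% were called higher and 26.8% lower, and scaled to all probe sets 74.6% and 6.04%. The shares were 17.4% and 7.2% with no further scaling and 24.3% and 22.4% with quantile normalization. The counts of each list below stand beside these shares, and no list was tested. Of 9 partners of the core machinery without ATG names, 0 were higher and 1 was lower (9 and 0 when scaled to all probe sets), YPT1 (-0.30), a small GTPase. Of 17 kinases and regulators upstream, 7 were higher and 0 lower, and under the other scalings 7 (no further scaling), 8 (quantile) and 17 (all probe sets) were higher and 0 lower. NPR2, a subunit of the complex that lowers TORC1 activity, was at 486 and 506 in X2180 and 883 and 844 in NBRC1950, a difference of 0.80 ± 0.08 (SE; limma adjusted p = 0.000228). SCH9, a kinase that TORC1 activates, was higher by 0.64, TOR1, the kinase itself, by 0.44 and NPR1, a kinase held inactive by TORC1, by 0.42. These genes include both activators and inhibitors of autophagy. The other 10, among them KOG1 (-0.21), which encodes a subunit of TORC1, did not pass.

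Of 12 regulators of ATG gene transcription or mRNA, 4 were higher and 2 lower, and scaled to all probe sets 9 were higher and 0 lower. GIS1 was higher by 0.78 ± 0.10 (SE; limma adjusted p = 0.000594), SIN3, part of a histone deacetylase complex that represses ATG8, by 0.45, MSN2, an activator in stress, by 0.35 and RPH1, a repressor of several ATG genes, by 0.28. The lower ones were DHH1 (-0.62), an RNA helicase that acts on ATG mRNAs, and MSN4 (-0.51), the paralogue of MSN2. UME6, which recruits the deacetylase to ATG8, was at 0.07 with an interval of -0.14 to 0.28, and GCN4, an activator of autophagy genes on amino acid starvation, at -0.04.

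The genes of delivery to the vacuole went both ways. Of 13 genes of the machinery that fuses membranes with the vacuole, 4 were lower and 1 higher (2 and 8 when scaled to all probe sets). VPS33, a subunit of the tethering complex, was at 602 and 744 in X2180 and 246 and 231 in NBRC1950, a difference of -1.49 ± 0.12 (SE; limma adjusted p = 7.85e-05). VAM3, a SNARE protein of the vacuole, was lower by 0.79, YKT6, also a SNARE, by 0.52 and YPT7, the GTPase of vacuole fusion, by 0.51, while the SNARE gene VAM7 was higher by 0.72. Of 10 vacuolar hydrolases, their inhibitors and Cvt cargo, 4 were lower and 3 higher (1 and 5 when scaled to all probe sets). Among the proteinase genes, PRB1 was higher by 0.95 ± 0.10 (SE; limma adjusted p = 0.000286) and PRC1 lower by 0.85, while PEP4 was at -0.06 and not called. LAP3 (-0.65) and APE3 (-0.55), both peptidases, were lower and CPS1 (0.39), a carboxypeptidase, was higher.

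The main cargo of the Cvt pathway and its receptor differed in opposite directions, except in the scaling to all probe sets, where the receptor gene ATG19 was at -0.25 and not called. APE1, which encodes aminopeptidase I, was at 247 and 277 in X2180 and 389 and 420.4 in NBRC1950, higher by 0.63 ± 0.11 (SE; limma adjusted p = 0.00286), beside ATG19 at -0.79. AMS1, which encodes alpha-mannosidase, was at 110.3 and 121 in X2180 and 60.5 and 62.0 in NBRC1950, lower by 0.91 (limma adjusted p = 0.00337). ATG34, which encodes a receptor for it that acts in starvation, was at -0.90, though these cultures were grown in rich medium. ATG34 was at -0.36 and not called in the scaling to all probe sets.

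Markers of the state of the culture also differed, and their part in the results above was not tested. Of 12 tested genes that respond to nitrogen limitation, of 13 on the array, 5 were lower and 2 higher (3 and 6 when scaled to all probe sets). With the filter at the 95th background percentile 3 were lower. DAL7 differed by -1.48 ± 0.11 (SE; limma adjusted p = 5.77e-05), DAL2 by -1.20 and CAR1 by -0.42, all genes of allantoin or arginine use. DAL4, the allantoin permease, was above background in X2180 but on neither NBRC1950 array. It was at least 3.12-fold lower, with measured means of 49.0 and 9.13. DAL4 is among the 5 lower genes, but it passed the filter only through its X2180 signals, so its call adds no support. DAL1 differed by -1.11, at 37.9 and 53.8 in X2180 and 22.2 and 19.7 in NBRC1950. Its NBRC1950 signals were close to the background limits of 14.9 to 18.2. The permease genes PUT4 (0.92) and GAP1 (0.45) were higher. Of 16 genes that rise when glucose runs out or growth stops, 5 were higher and 0 lower (13 and 0 when scaled to all probe sets). Over all genes, 20.4% were called higher, and 74.6% when scaled to all probe sets. HSP26, a small heat shock protein, was at 79.5 and 102 in X2180 and 649 and 652 in NBRC1950, a difference of 2.85 ± 0.14 (SE; limma adjusted p = 7.36e-06). MLS1 (2.33) and ICL1 (1.13), enzymes of the glyoxylate cycle, FBP1 (0.90), an enzyme of gluconeogenesis, and SPI1 (0.68), a wall protein, were higher as well. MLS1 was close to the background limits in X2180, at 21.1 and 29.3, and uneven in NBRC1950, at 75.6 and 207. FBP1 was dim and uneven in X2180, at 56.9 and 32.4. The other 11 did not pass, and HSP12 (0.49), CTT1 (0.06) and ADH2 (-0.34) were among them.

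**Figure D5:**
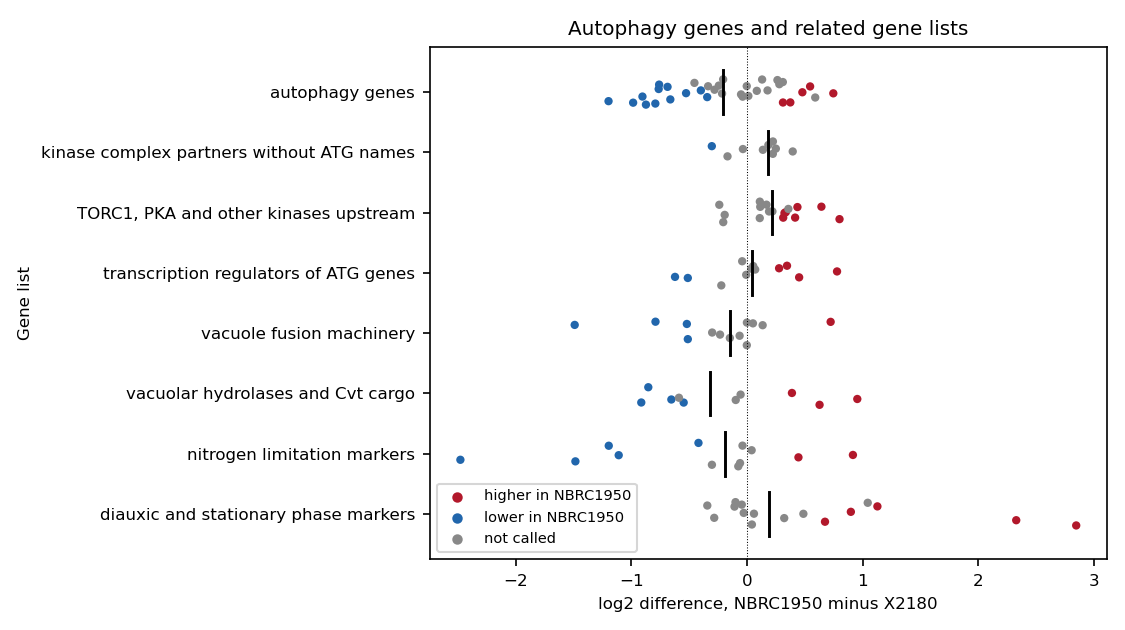
Difference between strains on the log2 scale (NBRC1950 minus X2180) for the 34 autophagy genes and 7 related lists, each point a gene in red (higher), blue (lower) or grey (not called) and each black bar the median of its list (the leftmost point is DAL4 at its fitted value, though it was not above background in NBRC1950). Medians range from -0.32 for vacuolar hydrolases and Cvt cargo to 0.22 for the kinases upstream, and all genes move up together in the scaling to all probe sets.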

How the data were processed

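The values the authors deposited are linear intensities, 1 for each probe set on each array, made with GCOS per the submitters' processing notes. The sources used here do not give its version or any scaling within it. Per the design text, RNA was enriched for poly(A) before labelling. That text also names division by the 50th percentile of each array and by the X2180 value in GeneSpring, which these values do not show. Probe sets were named through the annotation of the array and the R64 gene table by gene identifier, and no coordinates were used, since no build is named. The 5217 probe sets that matched no single S. cerevisiae gene and are no controls served as background (the array also carries probe sets for fission yeast). Intensities were scaled per array to a median of 973.6 over the S. cerevisiae probe sets, floored at 4.567, the median background, and converted to log2. Probe sets with a mean above 16.35, the 90th background percentile, were tested. The strain difference was fitted with limma 3.58.1, run in R 4.3.3 (eBayes with an intensity trend, no covariates, 2 residual and 5.415 prior degrees of freedom), with Benjamini-Hochberg adjustment over all tested probe sets and a call at an adjusted p under 0.05. The script was tested on simulated data. The brightest probe set stood for a gene. A gene above the background percentile on no array of a strain has a bound only, taken from the bright strain's mean log2 signal and, for each dim array, the higher of that percentile and its own signal. The number of arrays limits the precision. The p-values set each difference against a spread that limma drew from the gene itself and from other genes, on these 4 arrays only.

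Members, role groups and related lists were chosen with earlier results of these data known, so no list was tested. All members are named; of each related list, up to 4 called genes with the smallest adjusted p and all genes against the direction of most called ones could be named, and other genes were named after their values were seen. Alternatives varied scaling, floor, filter, variance model, probe set choice, replicate block, each array left out, and the t-test of the design text. Probe and promoter sequences were not used here.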

Additional observations from a re-analysis of the deposited data

How the results depend on the processing

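Scaled to all probe sets, 19 autophagy genes were higher and 3 lower, with a median of 0.34, and 67 related genes were higher and 6 lower, against 22 and 16. In that scaling 74.6% of all genes were called higher and 6.04% lower. With no further scaling 4 autophagy and 6 related genes were lower, and the median was -0.0021. With quantile normalization 8 autophagy genes were higher, at a median of -0.11. With 1 array left out, 4 to 6 autophagy genes were higher and 7 to 11 lower, the median was -0.27 to -0.14, and 7 lower genes were left without X2180 replicate 2. Related genes were then 17 to 20 higher and 16 to 18 lower. Without X2180 replicate 1 or NBRC1950 replicate 1, 8 autophagy genes were lower. Fewer of all genes were called as well with 1 array left out than in the main fit, so these smaller counts are not particular to the autophagy genes. With the filter, floor, trend and probe set alternatives, 5 or 6 autophagy genes were higher and 10 to 12 lower. Over all genes 42.5% to 47.4% were called under these alternatives.

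The methods' t-test gave 4 autophagy genes higher and 11 lower at its unadjusted threshold. Over all genes it then called 885 higher and 1186 lower, or 39% of 5316. After Benjamini-Hochberg adjustment it gave 0 and 2 (related genes 3 and 3), when 529 of 5316 genes were called. The deviations of same-numbered arrays correlated at 0.06, so the numbers were not taken as pairs. With the replicate block 5 autophagy genes were higher and 12 lower, with ATG20 lost and ATG26 gained, when 50.2% of all genes were called.

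Genes that took the other sign when scaled to all probe sets were ATG11 (0.49), ATG12 (0.33), ATG13 (0.30), ATG14 (0.54), ATG15 (0.51), ATG18 (0.34), ATG20 (0.20), ATG22 (0.15), ATG26 (0.27), ATG29 (0.21), ATG39 (0.092) and ATG40 (0.019). With no further scaling ATG11 (0.16), ATG14 (0.21), ATG15 (0.17) and ATG18 (0.0024) did so, and with quantile normalization ATG14 (0.31), ATG15 (0.070) and ATG39 (0.26). With 1 array left out, ATG5 ranged from -0.052 to 0.22, ATG7 from -0.12 to 0.14, ATG11 from -0.22 to 0.12, ATG14 from -0.063 to 0.059 and ATG15 from -0.17 to 0.099. Apart from the shift that a scale factor gives to all genes, the cause of these changes was not tested.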
